A study of Mus musculus with 3 samples.

Results

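The genes described here encode the receptors by which cells hold on to extracellular matrix: integrins, syndecans, the discoidin domain receptors, Cd44 and dystroglycan. They were taken as a fixed list of 31 genes, chosen by family and not by their values. Of these, 30 had a probe set that named them alone, out of 18193 genes measured, and Itga11 was not analysed here. Each gene is represented by its brightest probe set, ranked by the mean of its log2 signals. The 30 genes had 83 probe sets, and 22 of the genes had more than 1.

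The series compared pigment epithelium of the mouse eye grown in primary culture from C57BL/6 donors of 6 to 8 weeks. The epithelium came from the iris (IPE), the ciliary body (CBPE) or the retina (RPE), with 1 array for each. IPE and CBPE were released from their tissue with Dispase and DNase I and grown in RPMI 1640 with 10% serum, while RPE was released with trypsin and grown in DMEM with 20% serum, so tissue, enzyme and medium cannot be told apart in comparisons with RPE. All 3 were kept overnight without serum before extraction. The labels put cytokeratin-positive cells above 99% in IPE and above 95% in the other cultures, and state a time in culture only for those others, of 14 days. They do not say how many animals went into a culture. Each value is a single measurement, and the cultures were compared by size of difference without a test.

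Integrins are pairs of an alpha and a beta subunit. Which alpha subunit joins a beta subunit sets the ligand: some pairs bind collagen, some bind the laminins of basement membranes, and some bind the arginine-glycine-aspartate motif of fibronectin, vitronectin and nephronectin. Syndecans are transmembrane proteoglycans whose heparan sulfate chains bind matrix proteins beside integrins. Pigment epithelia rest on a basement membrane in the eye, and cells placed on plastic build new contacts of this kind.

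A signal counts as measured when it is above the floor of its array, the median signal of its probe sets without the controls. The floors were 14.5 for IPE, 17.3 for CBPE and 16.8 for RPE. Probe sets for bacterial transcripts that are absent from these cells reached 20.2 on the CBPE array, so a CBPE signal at or under 20.2 is treated as a bound when a fold is given. Signals of different probe sets are not compared with each other, because probes differ in brightness. The only measure of error is how far probe sets of 1 gene differ when both are brighter than 100. Their log2 differences had a pooled SD of 0.49 for CBPE minus IPE, 0.45 for RPE minus IPE and 0.29 for RPE minus CBPE. It leaves out the spread between cultures and between hybridisations.

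The arrays differed as a whole. The Gapdh control probes had 3′ over 5′ ratios of 0.940, 1.23 and 1.25 in IPE, CBPE and RPE. Those of the Actb control probes were 1.503, 2.259 and 2.255. The 12 hybridisation control probe sets had geometric mean signals of 1239, 3192 and 1941 in the same order. The brightest signal was 8441 in IPE against 19334 and 13849. Of 10 pigment cell markers, 8 were above the bound in IPE, 5 in CBPE and 8 in RPE, with summed signals of 5653, 646.4 and 1713, and the visual cycle gene Rpe65 was under the floor in all 3 cultures. Of 4 keratin genes, Krt8 and Krt18 were above the bound in every culture, Krt19 was at 2.2 in RPE, and Krt7 was above it in RPE alone, at 21.9. All 9 fibroblast markers were above the bound in every culture, and their signals summed to 27036, 49490.5 and 39725. Single fibroblast markers differed: Pdgfra was highest in IPE, at 2020, 776.6 and 958.1, and Dcn lowest in RPE, at 5566, 6163 and 2707. The part of these differences in the results below was not tested, and fewer cells of a type cannot be told apart from less RNA per cell.

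Of the 30 matrix receptor genes, 26 exceeded the floor somewhere and 4, Itgae, Itgal, Itgb4 and Itgb6, were under it on all 3. IPE gave the highest signal for 14 of the 26, CBPE for 10 and RPE for 2, whereas over all 13345 genes above the floor IPE was highest for 38.3%, CBPE for 33.0% and RPE for 28.4%. The largest differences were of Sdc4, which was far lower in IPE than in the other cultures by its brightest probe set, and of Itga8, which was far higher in IPE. Signals in IPE were at least 2-fold above those of both others for 4 members (Itga6, Itga7, Itga8 and Itgb1, against 6.39% of all genes) and below both for Sdc4 alone (6.13%). CBPE was that far above both for Itgb3 and Sdc4 (2.18%) and below both for none (2.19%), and RPE was above both or below both for none (0.764% and 1.03%). The subunits that bind laminin and their partner Itgb1 were higher in IPE, while Itgb3 and Itga5 were highest in CBPE.

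**Figure D1:**
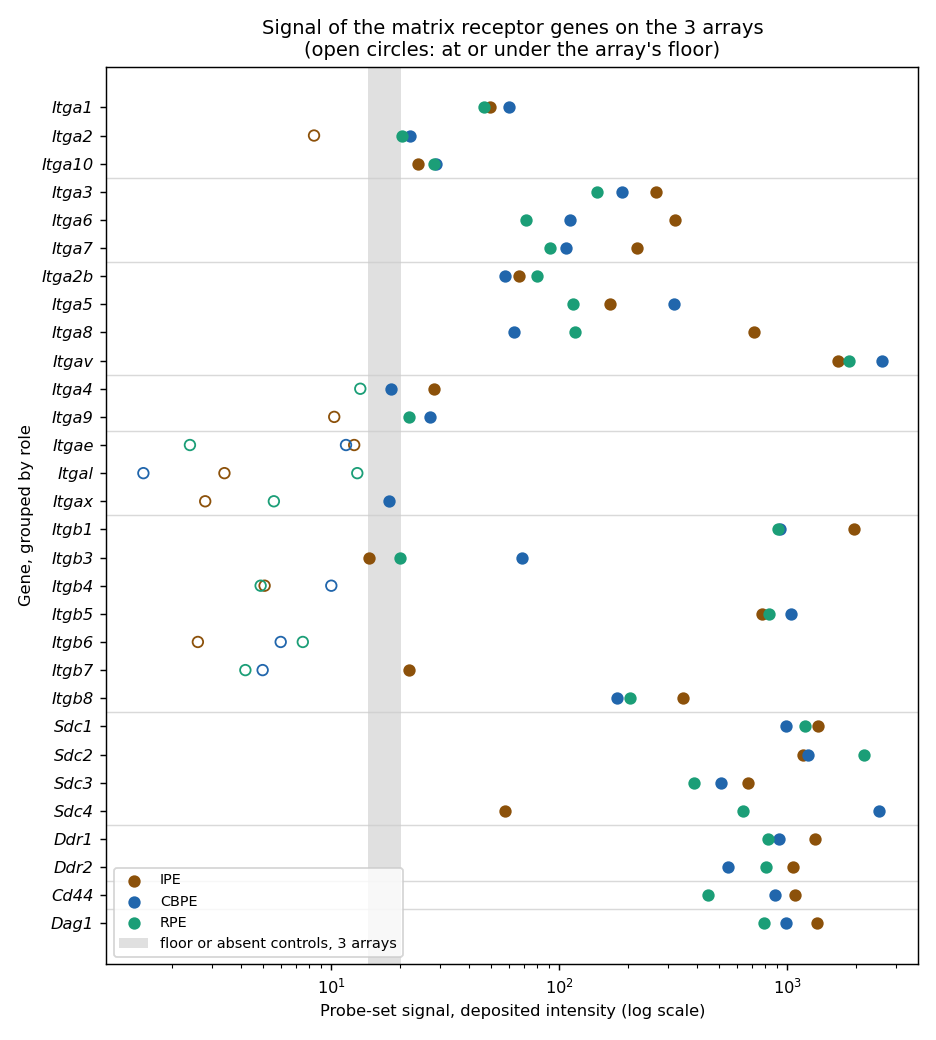
Signal of each matrix receptor gene on the IPE, CBPE and RPE arrays, on a log axis of deposited intensity, with genes grouped by role and open circles for signals at or under the array's floor. The grey band spans the floors and the absent bacterial controls. The IPE point of Sdc4 lies at 58 against 2508 in CBPE, and that of Itga8 at 716.3 against 63.1.

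In CBPE against IPE, 2 of the 26 members above the floor on either array were at least 2-fold higher and 4 were at least 2-fold lower, against 11.8% and 12.5% of all genes. In RPE against IPE, 1 of 25 was higher and 5 were lower, against 9.87% and 10.5%. In RPE against CBPE, none of 25 was higher and 3 were lower, against 3.75% and 4.26% of all genes, so the lower shares of 20% and 12% in the comparisons with RPE lay above those of all genes. The median log2 difference of the members was -0.31 in CBPE minus IPE, -0.39 in RPE minus IPE and -0.24 in RPE minus CBPE, beside 0.04, 0.02 and -0.0020 for all genes. The first 2 comparisons share the IPE array and the last shares an array with each of them, so they are not independent of each other.

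The 17 members with a mean signal above 100 are part of the same 26. Every member called lower against IPE is among them, so the counts of these 17 are no separate evidence. Compared with IPE, 4 of these were lower by 2-fold or more in CBPE and 5 in RPE, against 12.0% and 9.29% of all genes that bright. Sdc4 alone was that much higher in CBPE and in RPE, against 11.6% and 10.3%, and in RPE minus CBPE none was higher and 2 were lower, against 2.59% and 2.33%. In the comparisons with IPE 12 of the 17 and 13 of the 17 had a difference below 0. With the arrays scaled to equal medians, 6 of 26 members were lower and 2 higher in CBPE than in IPE, against 18.5% and 7.36% of all genes, while the median over all genes itself moved to -0.22.

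**Figure D2:**
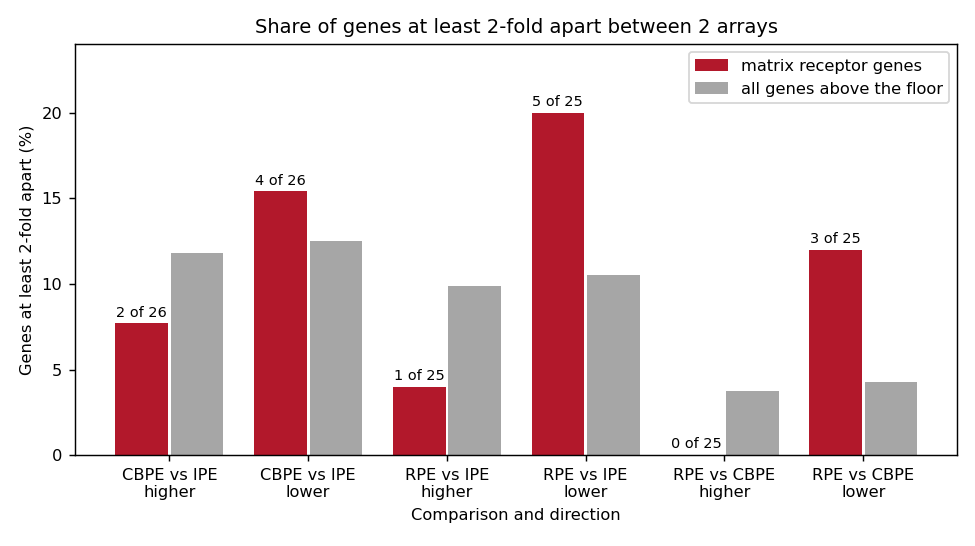
Share of genes at least 2-fold higher or lower in each comparison, in percent, for the matrix receptor genes (red, with counts) and for all genes above the floor (grey). In RPE minus IPE, 5 of 25 members were lower, beside 10.5% of all genes.

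The 300 bases around the start of 4 genes are shown, chosen among the members at least 2-fold apart that have a window in the RefSeq table: Sdc4 and Itga5, highest in CBPE, and Itga8 and Itgb1, highest in IPE. The windows run from 250 bases before to 50 after the RefSeq gene start, in assembly GRCm38.p6. They lie at chr2:164443139-164443438 on the minus strand for Sdc4, chr2:12301895-12302194 on the minus strand for Itga8, chr8:128685404-128685703 on the plus strand for Itgb1 and chr15:103366742-103367041 on the minus strand for Itga5. Capitals mark matches, on either strand, to any of 6 motifs searched.
Sdc4: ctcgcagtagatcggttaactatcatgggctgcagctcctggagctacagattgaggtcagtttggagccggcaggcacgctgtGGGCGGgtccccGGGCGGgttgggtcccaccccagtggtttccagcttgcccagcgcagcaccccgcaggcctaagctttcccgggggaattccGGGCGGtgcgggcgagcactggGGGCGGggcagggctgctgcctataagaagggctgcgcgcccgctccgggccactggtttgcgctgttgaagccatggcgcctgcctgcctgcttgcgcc
Itga8: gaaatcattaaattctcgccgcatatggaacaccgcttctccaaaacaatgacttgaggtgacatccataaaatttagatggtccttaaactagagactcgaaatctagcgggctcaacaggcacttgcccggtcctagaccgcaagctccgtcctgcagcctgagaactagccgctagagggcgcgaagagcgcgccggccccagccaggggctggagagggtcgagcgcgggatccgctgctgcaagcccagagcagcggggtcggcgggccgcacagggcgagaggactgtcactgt
Itgb1: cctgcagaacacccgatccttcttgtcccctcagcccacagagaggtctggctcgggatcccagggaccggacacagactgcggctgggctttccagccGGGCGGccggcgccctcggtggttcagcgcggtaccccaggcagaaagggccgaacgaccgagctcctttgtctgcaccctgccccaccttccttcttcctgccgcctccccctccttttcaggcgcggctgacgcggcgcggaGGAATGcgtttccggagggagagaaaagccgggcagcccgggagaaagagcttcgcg
Itga5: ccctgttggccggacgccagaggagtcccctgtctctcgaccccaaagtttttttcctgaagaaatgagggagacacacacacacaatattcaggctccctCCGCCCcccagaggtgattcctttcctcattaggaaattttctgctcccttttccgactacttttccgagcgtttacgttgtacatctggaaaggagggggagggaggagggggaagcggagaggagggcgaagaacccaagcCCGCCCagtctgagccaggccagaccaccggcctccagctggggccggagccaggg

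The motifs were the GC box GGGCGG, the TATA box TATAAA, the AP-1 site TGANTCA, the TEAD site GGAATG, the M-box core CATGTG and the E-box CACGTG. The GC box was found 4 times in the Sdc4 window, 2 times in that of Itga5, 1 time in that of Itgb1 and not in that of Itga8, and it occurs in 35.7% of the 32851 windows of this length. In the Itgb1 window the TEAD motif, present in 14.7% of windows, starts 7 bases before the gene start. No other motif of the 6 matched these 4 windows. The TATA box is in 13.6% of all windows, the AP-1 site in 7.81%, the M-box core in 14.2% and the E-box in 7.15%. A match describes the letters alone. Of the 31 listed genes, 24 had a window in the RefSeq table, 30 windows in all, of which 17 held a GC box. The TATA box was in 1 of these 30, the AP-1 site in 4, the TEAD site in 2, the M-box core in 4 and the E-box in 0.

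Among the integrin alpha subunits that bind laminin, all 3 had their highest signal in IPE. Itga6, whose product pairs with the beta 1 or beta 4 subunit, had a signal of 320.8 in IPE, against 111.3 in CBPE and 71.4 in RPE. Its IPE signal was 2.88-fold above CBPE and 4.49-fold above RPE. The other probe set of Itga6 gave 94.7 in IPE against 13.4 and 7.3, at least 4.69-fold and at least 5.64-fold, so both placed IPE first.

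Itga7, a laminin receptor subunit best known from muscle, gave 218 in IPE, 107.1 in CBPE and 90.7 in RPE. That is 2.04-fold above CBPE and 2.40-fold above RPE, from a single probe set. The CBPE difference, -1.03 on the log2 scale, was -0.72 after quantile normalization and no longer reached 2-fold. Itga3, an epithelial laminin receptor subunit, gave 266.1, 188.4 and 146.2. All 3 of its probe sets ranked IPE first and RPE last, with differences of at most 1.82-fold.

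Itgb1 encodes the beta subunit shared by the receptors for collagen, laminin and fibronectin. Its brightest probe set gave 1959 in IPE, 926.2 in CBPE and 907.1 in RPE, so IPE was 2.11-fold and 2.16-fold higher and the other cultures were level. A second bright probe set gave 2319, 476.5 and 655.2, 4.87-fold and 3.54-fold higher in IPE. Dimmer ones gave 71.5, 52.6 and 55.3, and 21.9, 26.1 and 12.1, the last of them highest in CBPE. With the mean of all probe sets, which includes dim ones, the log2 differences shrank to -0.51 in CBPE and -0.54 in RPE. Itgb4, whose product joins only the alpha 6 subunit in hemidesmosomes, reached at most 10 and was under the floor in every culture.

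The collagen-binding subunits were dim and close to level. In IPE, CBPE and RPE, Itga1 gave signals of 49.8, 60 and 46.8, and Itga10 gave 24, 28.7 and 28.3. Itga2 was under the floor in IPE, at 8.4, and reached 22.2 in CBPE and 20.4 in RPE. None of the 3 was 2-fold apart with the floor used here, though with the floor at the 40th percentile Itga2 was 1.33 higher in CBPE and 1.21 higher in RPE on the log2 scale.

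The subunits that recognise the arginine-glycine-aspartate motif went in different directions. Itga8, whose product pairs with beta 1 and binds nephronectin and fibronectin, gave 716.3 in IPE against 63.1 in CBPE and 117 in RPE. Its IPE signal was 11.4-fold above CBPE and 6.12-fold above RPE, log2 differences of -3.50 and -2.61. The SD between probe sets was taken at signals above 100 on both arrays, which the CBPE signal of Itga8 does not reach. The other probe set gave 338.7 in IPE against 10.3 and 9.8, at least 16.8-fold and at least 20.2-fold. The 2-fold difference toward IPE held under all 8 alternatives that give a log2 value. The brightest probe set placed RPE 1.85-fold above CBPE, which the other could not check, being under both floors.

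Itga5, the main fibronectin receptor subunit, was highest in CBPE, with a signal of 319.4 there, 166.7 in IPE and 114.2 in RPE. CBPE was 2.80-fold above RPE and 1.92-fold above IPE. The other 3 probe sets reached at most 26.2, and all were highest in CBPE. After quantile normalization CBPE minus IPE was 1.20, past the 2-fold limit, while without the probe set that may match several transcripts RPE minus CBPE moved from -1.48 to -0.64.

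Itgav encodes the alpha subunit of the vitronectin receptors, and its probe sets disagreed. The brightest gave 1660 in IPE, 2585 in CBPE and 1858 in RPE, CBPE being 1.56-fold above IPE. Another gave 294.3 in IPE against 69.6 and 38.8, with IPE 4.23-fold above CBPE and 7.59-fold above RPE. The gap of 2.72 between these log2 differences in CBPE minus IPE was reached by 18 of the 2529 genes whose brightest 2 probe sets both passed 100 on either array, so the direction of Itgav between cultures is not settled by these arrays. After quantile normalization the difference by the brightest fell to 0.14.

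The partners of the alpha v subunit were in part highest in CBPE. Itgb3 gave 68.7 in CBPE, 14.6 in IPE and 20.1 in RPE, by its only probe set above the floor. CBPE was 4.71-fold above IPE and 3.42-fold above RPE, but the IPE signal was next to its floor of 14.5 and the RPE signal near 16.8. With the floor at the 60th percentile the log2 differences shrank from 2.23 to 1.22 and from -1.77 to -1.33. With the mean of its probe sets the second was -0.91, no longer 2-fold. Itga2b, the alpha subunit that joins beta 3 on platelets, was level by comparison, at 66.5, 57.7 and 80.1.

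Itgb5, whose product binds vitronectin and in retinal pigment epithelium takes part in the uptake of photoreceptor fragments, gave 776.5 in IPE, 1035 in CBPE and 829.1 in RPE. These lie within 1.33-fold of each other. All 4 of its probe sets placed CBPE first and IPE last on the deposited scale, though by the brightest RPE and IPE were reversed under both other scalings, at -0.05 and -0.12 in RPE minus IPE, and 2 of them had CBPE more than 2-fold above IPE, at 2.25-fold and 2.39-fold. Itgb8, which serves in activating latent TGF-β, gave 347 in IPE, 178.7 in CBPE and 203.8 in RPE, 1.94-fold and 1.70-fold higher in IPE. Itgb6, its counterpart in other epithelia, was under the floor in all 3.

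**Figure D3:**
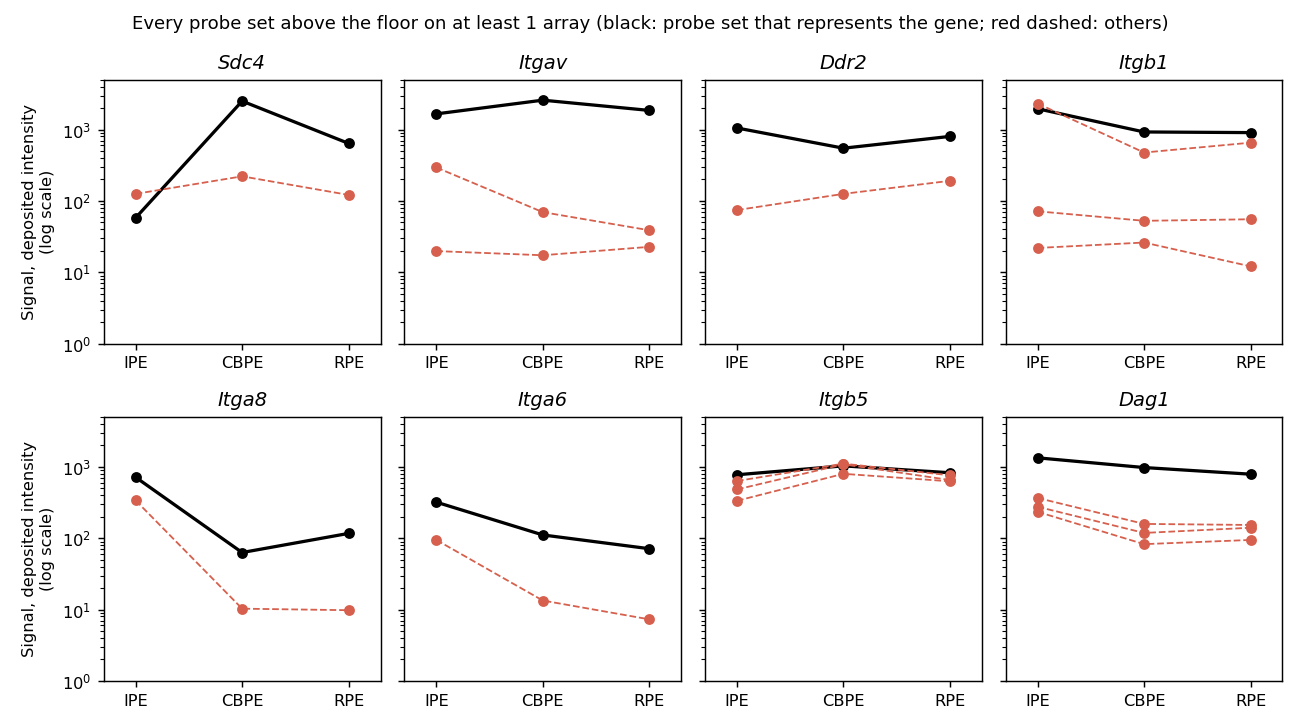
Signal of every probe set above the floor on at least 1 array for 8 genes, by culture, on a log axis of deposited intensity. The black line is the probe set that represents the gene, and the dashed red lines are the others. Both probe sets of Itga8 and of Itga6 place IPE highest, whereas those of Itgav and of Ddr2 rank the cultures differently and those of Sdc4 differ, 1 steep and 1 nearly flat.

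The integrins of white blood cells were at the edge of detection. Itgae, Itgal and Itgb7 reached at most 22, the last in IPE, and Itgax reached 17.9 in CBPE, under the 20.2 of the absent bacterial controls. Itga4 was brightest in IPE, at 28.1 against 18.3 in CBPE and 13.4 in RPE, and Itga9 in CBPE, with 27.2 there, 10.3 in IPE and 22 in RPE. Another probe set of Itga9 placed RPE first instead, at 26.6 against 15.8 in IPE and 12.6 in CBPE. Outside the list, Itgb2, the beta subunit shared by the leukocyte integrins, gave 69.6 in CBPE and was under the floor at 3.6 in IPE and 11.4 in RPE, at least 4.80-fold and at least 4.14-fold. Its usual partner Itgam reached at most 12.9. Leukocyte markers, like Itgb2 and Itgb3, were highest in CBPE, with 5, 9 and 7 of 10 above the bound in IPE, CBPE and RPE and summed signals of 364.8, 2419 and 541.4, although Ptprc was under the floor in all. Endothelial markers were highest in CBPE too, with 4, 8 and 4 of 9 above the bound and summed signals of 1179.8, 1794 and 553.1, although Eng was highest in IPE. Among platelet genes, Pf4 gave 18.3, 78.9 and 22.6 and Ppbp 4.7, 26.1 and 18.4. Gp9 was under the floor in all, and Itga2b was highest in RPE. The part of any of these cells in the CBPE signal of these integrins was not tested.

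Sdc4 encodes syndecan-4, which sits in focal adhesions beside fibronectin receptors. Its brightest probe set gave 58 in IPE, 2508 in CBPE and 640.1 in RPE. CBPE was 43.2-fold above IPE, RPE 11.0-fold above IPE, and CBPE 3.92-fold above RPE. The other probe set gave 125.5, 221.2 and 121.3, with CBPE 1.76-fold above IPE and 1.82-fold above RPE, and RPE level with IPE. Both thus placed CBPE first, but they differed by 4.62 on the log2 scale in CBPE minus IPE, a gap that 2 of the 2529 genes with 2 probe sets that bright reached, Sdc4 included. The median gap over those genes was 0.44.

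Averaged over both probe sets, Sdc4 was 3.13 higher in CBPE and 1.71 higher in RPE than in IPE on the log2 scale, against 5.43 and 3.46 by the brightest alone. The other probe set alone did not reach 2-fold in any comparison. Of 8 pericyte and smooth muscle markers, 6 were above the bound in IPE and 8 in both CBPE and RPE, and their signals summed to 10920, 27554 and 17951, the order of Sdc4. Single markers differed: Rgs5 gave 3974 in CBPE and 1416 in RPE and was under the floor in IPE, at 10.4, while Myh11 was highest in IPE, at 99.4, 22.1 and 40, and Mcam lowest in RPE, at 116.9, 321.2 and 103.5. The summed signals of the fibroblast, leukocyte, keratin and platelet markers had the order of Sdc4 too. Those of the pigment cell, endothelial, skeletal muscle and glial markers did not. A sum is led by its brightest genes, and within the fibroblast and keratin lists Pdgfra and Krt19 were highest in IPE. The part of any of these cells in the Sdc4 signal was not tested.

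By their brightest probe sets the other syndecans were closer between cultures. Sdc1, the syndecan of epithelia, gave 1356 in IPE, 981.7 in CBPE and 1189 in RPE. Of its 4 probe sets 3 placed IPE above CBPE, by up to 4.86-fold at signals of 324.9 against 66.9, while the remaining one gave 921.7 in IPE, 986.8 in CBPE and 1128 in RPE. Sdc2, the syndecan of mesenchymal cells, was highest in RPE at 2170, against 1166 in IPE and 1235 in CBPE, 1.86-fold and 1.76-fold. All 3 of its informative probe sets had RPE above IPE, but 1 of them placed CBPE above RPE. Sdc3, which is prominent in nerve tissue, gave 669.6, 510 and 389.3, within 1.72-fold. A dimmer probe set of Sdc3 gave 59.6, 71.7 and 21.8, so RPE was lowest by both while the order of IPE and CBPE differed.

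The discoidin domain receptors are collagen-binding tyrosine kinases. Ddr1, the form of epithelia, was brightest in IPE, at 1323 against 916.9 in CBPE and 821.2 in RPE, and all 7 probe sets above the floor in CBPE minus IPE had IPE higher. In RPE minus IPE this held for 7 of its 8. Ddr2, the form of mesenchymal cells, gave 1053, 548.4 and 802.3 by its brightest probe set and 74.4, 125.5 and 191.3 by the other. The first placed IPE 1.92-fold above CBPE and the second placed IPE 1.69-fold below it, so the order of IPE is not settled, while both had RPE above CBPE.

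Cd44, the receptor of hyaluronan, gave 1075 in IPE, 884.2 in CBPE and 450 in RPE. IPE was 2.39-fold above RPE, and the other probe sets above the floor placed IPE 1.82-fold and 2.24-fold above it. Those probe sets gave 444.9, 209.6 and 245.1, and 115, 42 and 51.4, so RPE was lowest by the brightest alone. Averaged over all its probe sets, the log2 difference in RPE minus IPE was -0.77, no longer 2-fold. That average includes a probe set under the floor in every culture, with signals of at most 1.6.

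Dag1 encodes dystroglycan, which links laminin and agrin outside the cell to dystrophin or utrophin inside. By its brightest probe set it gave 1342, 980.8 and 791.5 in IPE, CBPE and RPE, differences of 1.37-fold and 1.70-fold. The other 3 probe sets all had IPE at least 2-fold above CBPE, by 2.31-fold to 2.84-fold, so every probe set placed IPE first. Across all genes the dimmer probe sets leaned toward IPE by a median of -0.19 in CBPE minus IPE relative to the brightest of the gene, over 2299 probe sets. The members did not share that lean. Over their 14 dimmer probe sets above 100 on both arrays the median was 0.06, and 6 of the 14 lay below the brightest.

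**Figure D4:**
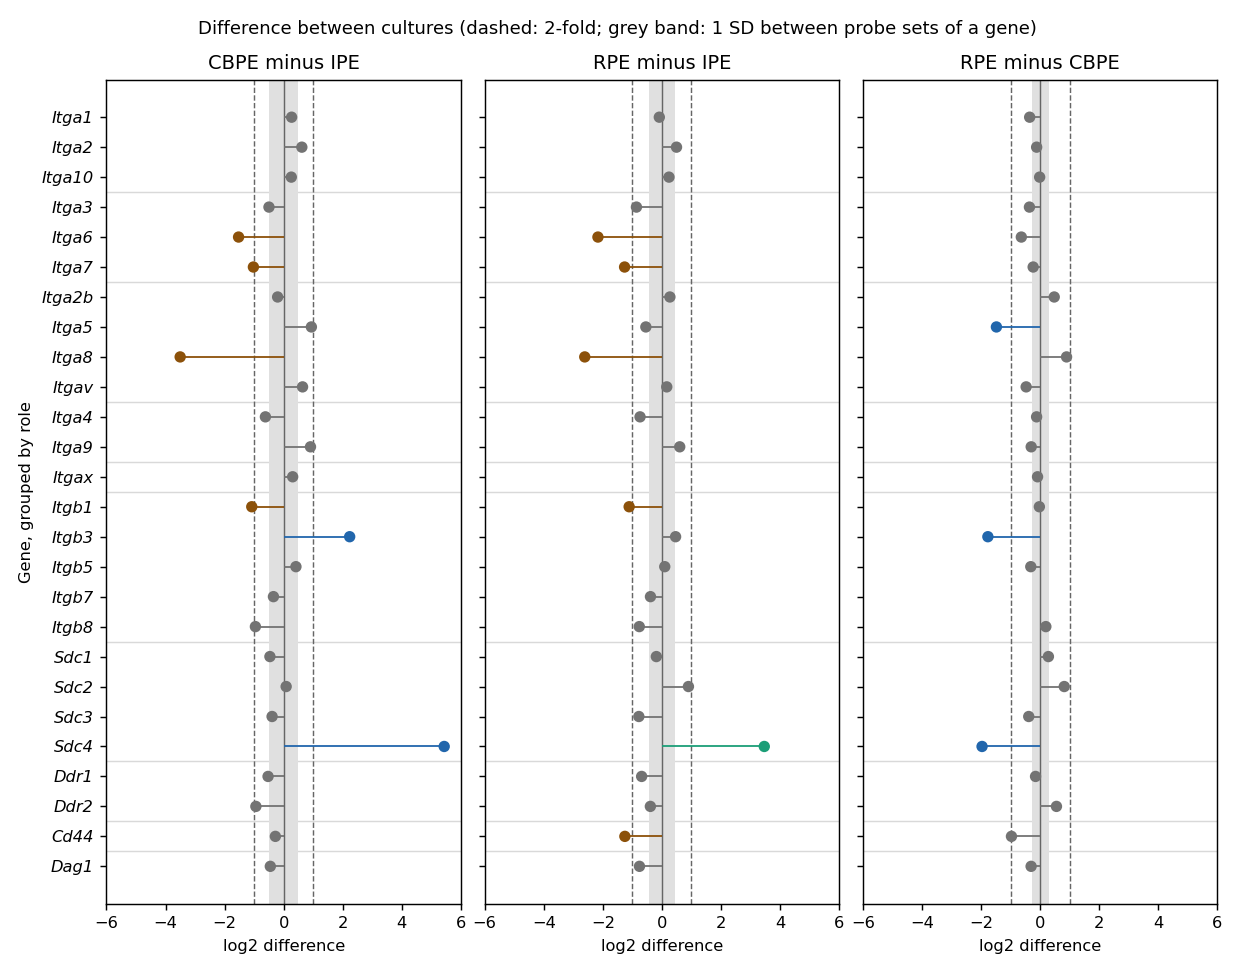
Log2 difference of each matrix receptor gene in the 3 comparisons, with dashed lines at 2-fold and a grey band of 1 SD between probe sets of a gene (0.49, 0.45 and 0.29). Coloured points are at least 2-fold apart, in the colour of the higher culture (brown IPE, blue CBPE, green RPE), and run from Itga8 at -3.50 to Sdc4 at 5.43 in CBPE minus IPE.

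Genes that work with these receptors were counted from further lists. Of 22 genes of the adhesion machinery compared in CBPE minus IPE, which link integrin tails to actin, 1 was at least 2-fold higher and none lower: Tns3, at 931.9 in IPE and 2094 in CBPE. In RPE minus IPE 2 of 21 were lower: Src, the kinase of adhesions, at 59.1 against 123.5, and Parvb, under the floor in RPE against 49 in IPE. In RPE minus CBPE 2 of 22 were lower: Parvb, and Tln1, which encodes the talin that activates integrins, at 490.9 against 995.1. The shares of all genes called higher and lower were 11.8% and 12.5% in the first comparison. They were 9.87% and 10.5% in the second, and 3.75% and 4.26% in the third. Tns3 (0.84) and Src (-0.80) were within 2-fold after quantile normalization, and Tln1 (-0.93) too. The median of this list was 0.15 in CBPE minus IPE, which turned to -0.06 after quantile normalization and -0.11 with equal medians. In RPE minus IPE it was -0.57 and in RPE minus CBPE -0.46, below 0 under all 3 scalings. The integrin activator Fermt2 gave 1239, 1366 and 831.8, and the kinase-like Ilk gave 937.3, 1188 and 1000.2, all within 2-fold.

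Of the 24 ligand genes compared, 8 were higher by 2-fold or more and 5 lower in CBPE minus IPE, against 11.8% and 12.5% of all genes. In RPE minus IPE 3 were higher and 5 lower, against 9.87% and 10.5%. In RPE minus CBPE 1 was higher and 1 lower, against 3.75% and 4.26%. Both other scalings turned the first of these splits around, to 5 higher and 8 lower in CBPE minus IPE. The shares of all genes there were 13.3% and 9.53% after quantile normalization, and 7.36% and 18.5% with equal medians. The fibrillar collagen gene Col3a1 gave 6251 in IPE and 13644 in CBPE, Col1a2 gave 4828 and 12392, and Col1a1 gave 3481 and 8747. After quantile normalization their log2 differences in CBPE minus IPE shrank to 0.0, 0.28 and 0.43. Tnc, which encodes tenascin-C, gave 3960 in CBPE, 1147 in IPE and 1203 in RPE, and Col6a1 gave 665.7, 2430 and 2258. Fibronectin (Fn1), the ligand of the Itga5 product, was within 1.56-fold, at 6150, 9588 and 6340, and its log2 difference in CBPE minus IPE went from 0.64 to -0.46 after quantile normalization.

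The 7 laminin chains of the list are named here after their values were seen. Lamc1, a chain of most laminins, gave 990.8 in IPE, 421.7 in CBPE and 322.1 in RPE. Lamb1 gave 1838, 887.6 and 756.1, Lama5 gave 244.1, 86.2 and 53.1, and Lama2 gave 488.3, 216.7 and 185.4. In these 4, IPE was at least 2-fold above both others under all 3 scalings, as, by the deposited scale, it was in the receptor subunits Itga6, Itga7 and Itgb1, but not in the other 3. Lamb2 was lowest in IPE, at 371.5 against 619.1 and 528.8, as was Lama1, at 20.8 against 39.8 and 30, and Lama4 was within 1.38-fold, at 721.6, 524.1 and 558.7. Agrin (Agrn), a ligand of dystroglycan, gave 887.6, 444 and 239.7. Nephronectin (Npnt), the ligand of the Itga8 product, gave 155 in IPE, 58.8 in CBPE and 222 in RPE, an order unlike that of Itga8.

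Glypicans carry heparan sulfate like the syndecans but are anchored by a lipid. Of the 4 above the floor, Gpc1 gave 191.6, 1364 and 883.7 in IPE, CBPE and RPE, and Gpc3 gave 37, 647.9 and 645. Both were lowest in IPE, as Sdc4 was by its brightest probe set, by 7.12-fold and 17.5-fold against CBPE, while Gpc4 and Gpc6 were within 1.67-fold across cultures. Of 12 genes of syndecan binding and heparan sulfate synthesis, 1 was at least 2-fold higher and 1 lower in each comparison. Against IPE, the higher and lower shares of all genes ran from 9.87% to 12.5%. Between RPE and CBPE they were 3.75% and 4.26%. With equal medians 2 of the 12 were lower in both comparisons with IPE, beside 18.5% of all genes for CBPE and 15.4% for RPE. After quantile normalization none of the 12 was higher in RPE minus CBPE, where Ndst2 went from 1.01 to 0.92. The genes called on the deposited scale were the sulfotransferase genes Hs6st2, at 139.3, 385 and 594.2, and Ndst2, at 146.7, 43.2 and 87.1, and the heparanase gene Hpse, at 136.3, 97.8 and 44.7. The syndecan adaptor Sdcbp was within 1.35-fold.

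The partners of dystroglycan were mostly within 2-fold. Of 13 compared in CBPE minus IPE, 2 were at least 2-fold lower and 1 higher, against 12.5% and 11.8% of all genes. Of 13 in RPE minus IPE, 2 were lower and none higher, against 10.5% and 9.87%. Sntb1, a syntrophin gene, was highest in IPE, at 572.1 against 139 in CBPE and 151.5 in RPE, and Dtna, a dystrobrevin gene, gave 52.7, 10.6 and 19.9. Sgcd, a sarcoglycan gene, exceeded the floor only in CBPE, at 45.8. Utrn, which encodes utrophin, gave 380.6, 238.2 and 310, and the sarcoglycan gene Sgce 663.4, 526.5 and 685.4. Of the hyaluronan genes that bear on Cd44, the synthase Has2 gave 33.4, 55 and 9.3, Has1 gave 43.1, 5.6 and 28.2, and Hmmr, which is also a cell division gene, gave 38, 62.8 and 117.1. Stab1, a scavenger receptor of hyaluronan found on macrophages and endothelium, gave 11.5, 77.2 and 26.2.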

How the data were processed

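RNA of 3 cultures was hybridised to 1 array each. Copies of 1 µg of RNA were made from an oligo-dT primer and labelled with biotin by in vitro transcription, per the labels' protocols. The deposited values are linear intensity values for 45101 probe sets, 64 of them controls. How the scanner software summarised them is not given in the sources used here. Their 2% trimmed mean was 100.001 on every array, so the authors' values were kept on their common scale. The number of arrays, not a read depth, limits the precision.

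Probe sets were named from a platform annotation of 2016, with 34958 of 35890 listed probe sets carrying 1 gene, and 34754 matched to RefSeq (GRCm38.p6) by gene identifier. Signals under an array's 50th percentile were set to it before log2. A gene was compared when either array exceeded its floor, and counted at 2-fold. A fold over a signal at or under the bound is written as at least that size, the bound being the higher of the floor and the 27 bacterial controls.

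Named genes are all members, and from each further list up to 6 genes at least 2-fold apart. These were taken largely by mean signal, but not every gene that ranked by it is named. The further lists were also counted under both other scalings, which was chosen after seeing the data. Other genes were named after their values were seen. The members and lists were chosen with earlier results of these data known. Counting was tested on simulated data. The alternatives were 2 scalings, 4 floors, 2 choices of probe set and 2 fold limits. Python 3.11.15, numpy 2.4.6 and pandas 2.3.3 were used.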

Additional observations from a re-analysis of the deposited data

How the results depend on the processing

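No difference of a member that was at least 2-fold changed sign under any alternative. Sdc4, Itga8 and Itga6 stayed at least 2-fold apart in each of their comparisons under all 8 alternatives that give a log2 value, Sdc4 between 3.13 and 5.43 in CBPE minus IPE. For Sdc4 this says little, because every alternative but the mean of all probe sets used the same brightest probe set. Its other probe set alone did not reach 2-fold in any comparison. With the mean of all probe sets Itgb1 fell short of 2-fold in both comparisons with IPE, as did Cd44 in RPE minus IPE. So did Itga5 and Itgb3 in RPE minus CBPE, which left 1 member lower there, against 2.86% of all genes. For Itgb1, Cd44 and Itgb3 that mean includes probe sets under the floor on every array. The median over the members kept its sign throughout. In CBPE minus IPE it was -0.57 with equal medians, -0.15 with the mean of all probe sets and -0.47 with a fixed floor of 100. In RPE minus IPE it was -0.50 after quantile normalization, -0.60 with equal medians, -0.62 with the floor at the 60th percentile and -0.76 with the fixed floor. In RPE minus CBPE it was -0.0915 with the mean of all probe sets. With the floor at the 40th percentile 5 of 27 members were higher in CBPE and 3 of 27 in RPE than in IPE, against 15.7% and 12.3% of all genes, and with the fixed floor, which leaves fewer genes, 1 was higher in CBPE, against 9.82%. At a 1.5-fold limit the members higher and lower were 6 and 7 in CBPE and 3 and 11 in RPE against IPE, and 2 and 5 in RPE minus CBPE, against 24.4% and 23.3%, 21.7% and 22.2%, and 12.7% and 13.4% of all genes. At a 3-fold limit 1 was lower in CBPE and 2 in RPE than in IPE, against 4.82% and 3.47%. Sdc4 (43.2-fold) and Itgb3 (4.71-fold) still passed that limit as higher in CBPE than in IPE, and Sdc4 (11.0-fold) in RPE. In RPE minus CBPE, Sdc4 (3.92-fold) and Itgb3 (3.42-fold) passed it as lower. Equal medians moved the median of all genes from 0.04 to -0.22 in CBPE minus IPE and from 0.02 to -0.20 in RPE minus IPE, and the share of genes higher among those called from 48.5% to 28.5% and 28.9%. Where not due to the setting itself, the cause was not tested. No paired analysis was possible because each culture has 1 array. Signals near the floor limit Itgb3, Itga2, Itga4, Itga9, Itgax and Itgb7.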
